A study of Mus musculus with 12 samples.

Results

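Complement is a cascade of plasma and membrane proteins, and 31 genes of it were followed here in mouse lymphoma tumors. The list was set by gene symbol, with no threshold on a measured value, and holds components, receptors and regulators that were found as rows of the count table. All 31 were among the 770 genes of the nCounter mouse PanCancer Immune Profiling Panel, and all 31 were among the 750 genes that were tested, the rest being reference genes. By role they were 6 genes of the classical pathway, 4 of the lectin pathway and pattern binding, 4 of the central and alternative pathway, 7 of the terminal pathway, 3 receptors, 6 regulators, and C1qbp.

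The nCounter assay counts barcoded probes bound to RNA, without amplification. It was run on 12 A20 tumors, 4 in each of 3 groups, and the question the groups address is what a TLR4 agonist in an emulsion changes in the tumor and what the emulsion changes alone. A20 is a single B-cell lymphoma line of Balb/c origin, and its cells were implanted under the skin of female Balb/c mice. About 7 days later the established tumors received PBS, SE or GLA-SE directly into the tumor, 3 times, every other day, and were taken 2 h after the last injection. GLA-SE, which the study calls G100, is 10 µg of the synthetic TLR4 agonist GLA in 50 µl of a 2% stable emulsion. SE is that emulsion without GLA, and PBS is the buffer control. The labels name a separate mouse for each tumor, and the age of the mice was not among them.

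Complement starts by several routes. The classical pathway begins when C1q binds antibody or a cell surface, the lectin pathway when mannose-binding lectin binds sugars, and the alternative pathway amplifies C3 that is already deposited. All meet at the cleavage of C3, which tags surfaces for phagocytes, and go on to C5 and the membrane attack complex, while the released C3a and C5a fragments attract and activate myeloid cells. Liver makes most of the complement in plasma, but macrophages, fibroblasts and endothelial cells make many components in tissue, and host cells carry regulators that stop the cascade. In lymphoma the malignant cells are also targets of complement when antibodies bind them.

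Total counts were 812522 to 1086462 in the PBS tumors, 810260 to 1268512 in the SE tumors and 1186487 to 1612415 in the GLA-SE tumors. Counts were scaled to 17 reference genes, and the values below are these normalized counts unless said otherwise. SE replicate 4 had the lowest reference level, with a scaling factor of 0.491 against 0.801 to 1.5 in the other 11 tumors, so its counts were raised most. The factors were 1.06 to 1.37 in PBS tumors and 0.92 to 1.04 in GLA-SE tumors, without overlap. Scaling thus lowered the PBS counts relative to the GLA-SE counts. The panel median log2 fold change of GLA-SE against PBS was 0.61 without rescaling and 0.89 with it. SE replicates 3 and 4 stood apart from SE replicates 1 and 2 in most of the genes below, and values are given with and without SE replicate 4 where it decides them. In a tumor piece, fewer cells of a type and less RNA per cell cannot be told apart. Probes differ in efficiency, so no level is compared between genes. Probes for C4b, C1ra, C1s1 and Cd59b may also count the related genes C4a, C1rb, C1s2 and Cd59a, as probe sequences were not examined.

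Promoters are shown first, for the 3 members with the largest rises under GLA-SE among those that passed the test given below and had an entry in the RefSeq table. Cfb, C4b, Serping1, C2 and Clu rose more than C1s1 but had no entry. The promoters of C3 and Cfp, next in order among those with an entry, are not printed and held 0 matches. C5ar1 and C3ar1 encode the receptors for the C5a and C3a fragments, and C1s1 encodes the protease of the C1 complex that cleaves C4 and C2. Each sequence is the 250 bases before the gene start, written 5′ to 3′ on the gene's own strand, from RefSeq on build GRCm38.p6. That build is the C57BL/6J reference, and the Balb/c sequence of these tumors was not read. The 3 genes lie on the minus strand, C5ar1 at chr7:16259339-16259588, C3ar1 at chr6:122856158-122856407 and C1s1 at chr6:124542360-124542609. Capitals mark a match to a motif.
C5ar1: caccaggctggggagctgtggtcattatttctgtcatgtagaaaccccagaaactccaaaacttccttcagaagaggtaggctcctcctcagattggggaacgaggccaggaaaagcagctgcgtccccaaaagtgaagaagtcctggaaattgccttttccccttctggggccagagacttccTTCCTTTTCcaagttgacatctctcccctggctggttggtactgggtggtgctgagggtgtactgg
C3ar1: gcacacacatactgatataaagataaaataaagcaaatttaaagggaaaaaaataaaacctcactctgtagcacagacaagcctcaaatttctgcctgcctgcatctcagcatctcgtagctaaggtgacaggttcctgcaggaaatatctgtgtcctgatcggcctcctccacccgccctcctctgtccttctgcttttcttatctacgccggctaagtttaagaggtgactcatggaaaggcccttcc
C1s1: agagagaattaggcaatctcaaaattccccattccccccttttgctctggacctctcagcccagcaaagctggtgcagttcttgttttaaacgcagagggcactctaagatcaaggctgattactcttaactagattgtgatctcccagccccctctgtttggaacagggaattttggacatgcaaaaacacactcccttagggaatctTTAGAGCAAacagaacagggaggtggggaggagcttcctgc
The capitals in C5ar1 match GAAANNGAA, the letters of an interferon-stimulated response element, on the opposite strand, with its first printed base 66 bases before the gene start. The capitals in C1s1 match TTGCNNNAA, a C/EBP-type site, also on the opposite strand, 41 bases before the start. Each was the only match in its window, and none was found in the C3ar1 window. RefSeq lists 2 starts for C1s1, and only the window of the first was searched.

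GAAANNGAA was searched on both strands, as were TTCNNNGAA (the gamma-activated site), TTGCNNNAA and GGGANTTTC (most of an NF-kB site), in the promoters of the 23 members with an entry. GAAANNGAA was present in C5ar1 and Crp, 2 of 23, and in 7.13% of all 32851 promoters of the table. TTCNNNGAA was present in C7, C8a and Masp2, 3 of 23, and in 7.02% of all. TTGCNNNAA was present in C1s1, C6, C7 and Mbl2, 4 of 23, and in 8.29% of all. GGGANTTTC was present in 0 of 23 and in 0.94% of all. Each member was searched at the first start listed for it, whereas the shares of all promoters count every listed start, so the 2 are not fully alike. A match is a description of letters, and no binding was measured. C1qa, C2, C4b, Cfb, Cfi, Clu, Masp1 and Serping1 had no entry.

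In GLA-SE tumors compared with PBS tumors, 19 of the 31 complement genes rose and 0 fell relative to the reference genes, against 13 and 2 under TMM scaling and 3 and 10 relative to the panel median (edgeR's quasi-likelihood test, Benjamini-Hochberg adjusted p under 0.05 over 750 genes). The reference scale is used below, and the other scales are taken up after the single genes. Over the whole panel 68.3% of genes rose and 0.4% fell, so the share of complement genes that rose was near that of the panel. The median log2 fold change was 1.06 over the 31 genes and 0.89 over the panel. The largest fitted rises were in C5ar1 (5.8-fold), Cfb (5.37-fold), C4b (3.63-fold) and C3ar1 (3.39-fold). By role, 6 of 6 classical genes rose, 1 of 4 lectin genes, 3 of 4 central and alternative genes, 4 of 7 terminal genes, 2 of 3 receptors, 3 of 6 regulators, and C1qbp did not pass the test. The 4 GLA-SE tumors lay above the 4 PBS tumors without overlap in 17 of the 31 genes, against 63.6% of the panel, and below them in 0, against 1.07% of the panel. The call was kept for 16 of the 19 in each of the 8 fits that leave out 1 tumor, and C6, C7 and C8g lost it in some. With all 12 tumors in one fit, so that the spread of the SE tumors entered the error, 8 of the 31 passed (C1qa, C1qb, C2, C3, C5ar1, Cfb, Cfp and Serping1), against 33.7% of the panel.

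**Figure D1:**
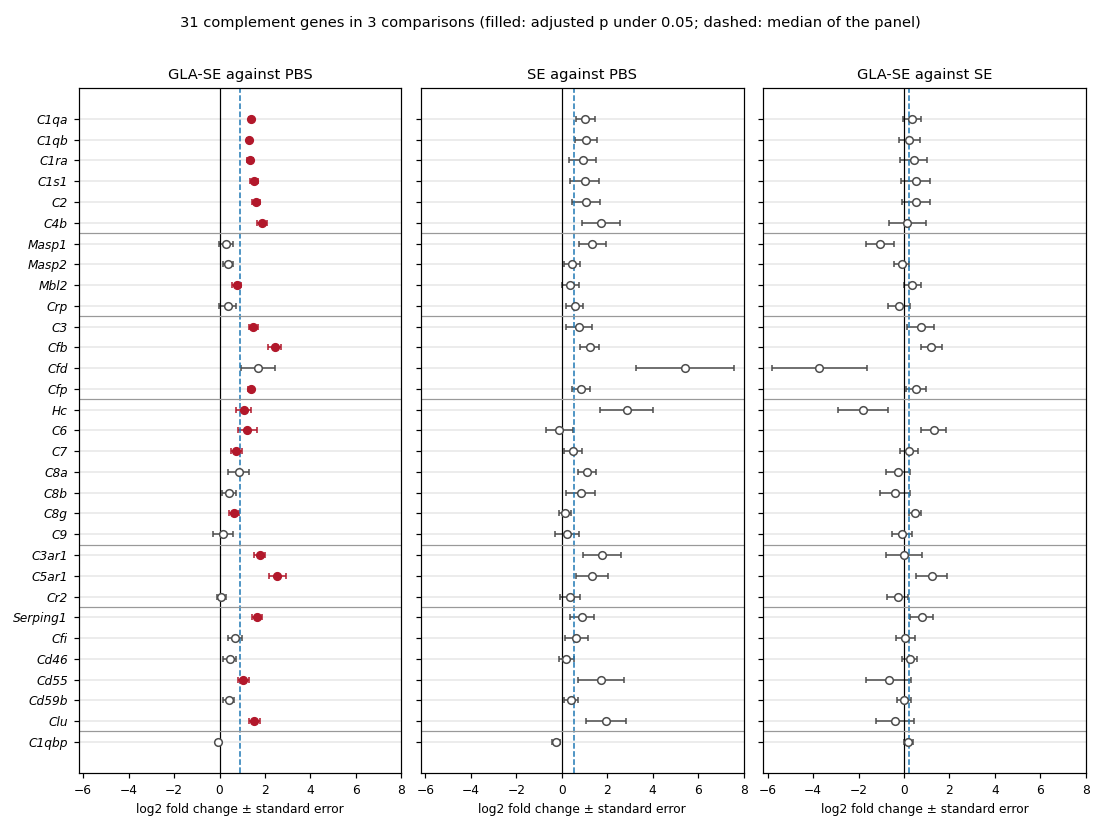
The log2 fold change with its standard error for each of the 31 complement genes on the reference scale, in GLA-SE against PBS (left), SE against PBS (middle) and GLA-SE against SE (right), with genes ordered by role and filled points marking an adjusted p under 0.05. The 19 filled points are all in the left panel and all above 0, the dashed lines mark the panel medians of 0.89, 0.53 and 0.22, and for most genes the error bars are wider in both comparisons that hold the SE tumors.

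C1q is built from several kinds of chain, and C1qa and C1qb encode the A and the B chain. The normalized count of C1qa was 1671, 1387, 1553 and 1616 in the PBS tumors, 1603, 1594, 4066 and 5472 in the SE tumors and 3753, 4376, 4325 and 3776 in the GLA-SE tumors. Every GLA-SE tumor was above every PBS tumor, SE replicates 1 and 2 lay in the PBS range, and SE replicate 4 was above all others. The rise from PBS to GLA-SE was 1.38 ± 0.10 on the log2 scale (± standard error of the fit, as for every log2 value below, adjusted p = 9.96e-05), from 1556 ± 123 to 4057 ± 339 normalized counts (SD, n = 4). C1qb gave 2277, 1997, 2051 and 2047 with PBS, 1890.4, 1870.2, 6037 and 7849.6 with SE and 4875, 5396, 5597 and 4857 with GLA-SE. PBS and GLA-SE did not overlap, SE replicates 1 and 2 lay just below the PBS range, and SE replicates 3 and 4 lay above the GLA-SE range. C1qb rose by 1.31 ± 0.09 (adjusted p = 9.96e-05).

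C1r and C1s are the proteases held by C1q, and the first activates the second. C1ra was counted at 763, 567, 581 and 643 in PBS tumors, 475, 362, 1143 and 2854 in SE tumors and 1491, 1919, 1608 and 1444 in GLA-SE tumors. C1s1, whose promoter is printed above, was counted at 793, 541, 508 and 654, then 438, 360.3, 1159 and 3043, then 1740.4, 2157, 1645 and 1566 in the same order of groups. In both genes GLA-SE lay above PBS without overlap, SE replicates 1 and 2 lay below every PBS tumor, SE replicate 3 lay between the PBS and GLA-SE ranges and SE replicate 4 lay above every GLA-SE tumor. The log2 rise with GLA-SE was 1.34 ± 0.14 for C1ra (adjusted p = 2.15e-04) and 1.51 ± 0.17 for C1s1 (adjusted p = 2.41e-04).

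C2 and C4 form the C3 convertase of the classical and lectin pathways. C2 gave 149, 136, 134 and 129.5 in the PBS tumors, which was a narrow range, 112, 88.5, 272 and 682 in the SE tumors and 388, 520.2, 399 and 362 in the GLA-SE tumors. For C4b the PBS tumors held 572, 319, 407 and 516, the SE tumors 327, 278, 1083 and 4295 and the GLA-SE tumors 1584, 1833, 1885 and 1281. GLA-SE and PBS did not overlap in either gene, and SE replicate 4 was the highest of all 12 tumors in both. C2 rose by 1.61 ± 0.16 (adjusted p = 1.94e-04) and C4b by 1.86 ± 0.21 (adjusted p = 2.28e-04) on the log2 scale, the latter the largest estimate among the classical genes.

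Of the lectin pathway and pattern-binding genes only Mbl2, which encodes a mannose-binding lectin, passed the test. All of its means were under 20 normalized counts, a threshold count named in the study's nSolver settings, with a range of 8.0 to 10.3 in PBS tumors and 12.5 to 17.7 in GLA-SE tumors (log2 fold change 0.76 ± 0.19, adjusted p = 0.0137). These are counts near the low end of the assay, and the deposited count of Mbl2 was under 20 in all 12 tumors. Masp1 and Masp2 encode the proteases of this pathway, and Crp encodes C-reactive protein, a pentraxin that binds microbial and damaged surfaces. Their log2 fold changes were 0.28 ± 0.30 for Masp1, 0.37 ± 0.21 for Masp2 and 0.37 ± 0.37 for Crp, with adjusted p of 0.42, 0.15 and 0.395. The GLA-SE tumors overlapped the PBS tumors in each of the 3. Masp1 was 10.3 to 16.1 in PBS tumors and 9.3 to 25.0 in GLA-SE tumors, but 50.0 and 63.1 in SE replicates 3 and 4.

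C3 is the protein on which all routes meet. Its normalized count was 3738, 3556, 3473 and 3608 in the PBS tumors, 2366, 2479, 4594 and 14655 in the SE tumors and 9369, 12477, 11810 and 6301 in the GLA-SE tumors. PBS tumors were close to one another, SE replicates 1 and 2 were below them, and the GLA-SE tumors spread over a wider range above them, with replicate 4 lowest. The rise was 1.47 ± 0.20 (adjusted p = 4.37e-04). Factor B, encoded by Cfb, supplies the catalytic part of the alternative convertase. Cfb gave 608, 375, 500.2 and 529 with PBS, 669, 639, 1122 and 2266 with SE and 1838, 2106, 4357 and 2508 with GLA-SE. It was the only one of the 31 genes in which all 4 SE tumors lay above all 4 PBS tumors on this scale, and SE replicate 4 reached the GLA-SE range. Cfb rose by 2.43 ± 0.29 with GLA-SE (adjusted p = 2.97e-04), from 503 ± 96.7 to 2702 ± 1137 normalized counts (SD, n = 4).

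Properdin, the product of Cfp, stabilizes the alternative convertase and is made by myeloid cells. Cfp was 921, 933, 847 and 917 in PBS tumors, 778, 846, 2052 and 2828 in SE tumors and 2032, 2292, 2757 and 2271 in GLA-SE tumors. GLA-SE lay above PBS without overlap, and the rise was 1.37 ± 0.11 (adjusted p = 9.96e-05). Factor D, or adipsin, encoded by Cfd, cleaves factor B and is abundant in adipocytes. Cfd gave 379, 774, 390.0 and 192 in the PBS tumors, 78.9, 78.1, 1935 and 71793 in the SE tumors and 473, 726, 3889 and 518 in the GLA-SE tumors. GLA-SE replicate 3 stood far above the other 3 GLA-SE tumors, all of which lay in the PBS range. The log2 fold change with GLA-SE was 1.69 ± 0.75 and did not pass the test (adjusted p = 0.0709), and it was 0.40 without GLA-SE replicate 3.

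The terminal genes encode C5 and the parts of the membrane attack complex, and most were counted at low levels. C6, which joins the complex after C5b, was 44.3, 15.9, 13.9 and 26.2 in PBS tumors, 10.0, 15.6, 20 and 50.9 in SE tumors and 48.2, 92.4, 42.4 and 49.8 in GLA-SE tumors. PBS replicate 1 was above GLA-SE replicate 3, so the groups overlapped. C6 rose by 1.22 ± 0.42 (adjusted p = 0.0279), and the call was lost in 4 of the 8 fits that leave out a tumor (PBS replicates 2, 3 and 4 and GLA-SE replicate 2). C8g, a chain of C8, was 26.4, 18.7, 24.1 and 16.7 in PBS tumors, 19.4, 21.9, 30.0 and 24.4 in SE tumors and 27.9, 28.0, 43.5 and 33.6 in GLA-SE tumors. The groups did not overlap, although the gap between the highest PBS and the lowest GLA-SE tumor was small. The rise of C8g was 0.63 ± 0.23 (adjusted p = 0.0378), lost in 5 of the 8 fits (without PBS replicate 2, 3 or 4 or GLA-SE replicate 3 or 4).

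Hc, which encodes C5, and C7 rose with means under 20 in both groups. Hc ranged over 4.4 to 11.2 in PBS tumors and 11.4 to 23.9 in GLA-SE tumors (1.06 ± 0.33, adjusted p = 0.0191). C7 ranged over 7.5 to 13.1 and 12.2 to 22.8 (0.74 ± 0.25, adjusted p = 0.0291), and lost the call in 5 of the 8 fits (without PBS replicate 1 or 3 or GLA-SE replicate 1, 2 or 3). The remaining chains of C8 and the pore-forming C9 did not pass the test. Their log2 fold changes were 0.84 ± 0.45 for C8a, 0.43 ± 0.31 for C8b and 0.15 ± 0.43 for C9, with adjusted p from 0.127 to 0.762, and the groups overlapped in each. C9 had a mean under 20 in every group.

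C5ar1, the receptor for C5a on neutrophils and macrophages, had the largest fitted rise of the 31 genes. It was counted at 163, 108, 69.4 and 158 in the PBS tumors, 109, 81.2, 358 and 698 in the SE tumors and 429, 592, 1183 and 685 in the GLA-SE tumors. The lowest GLA-SE tumor was above the highest PBS tumor by a wide margin, and GLA-SE replicate 3 was the highest of the 12. The rise was 2.54 ± 0.38 on the log2 scale (adjusted p = 7.37e-04), from 124 ± 44.5 to 722 ± 325 normalized counts (SD, n = 4). C3ar1, the receptor for C3a, gave 437, 452, 249.8 and 554 with PBS, 305, 204, 2228 and 3015 with SE and 1240.3, 1289.6, 1720.3 and 1479 with GLA-SE. PBS and GLA-SE did not overlap, and SE replicates 3 and 4 were above every GLA-SE tumor. C3ar1 rose by 1.76 ± 0.24 (adjusted p = 4.43e-04). Cr2, the complement receptor of B cells that binds C3d, was 98.0, 137, 104 and 117 in PBS tumors and 139.7, 126, 117 and 96.6 in GLA-SE tumors. These ranges nearly coincided (fitted difference 0.07 ± 0.19, adjusted p = 0.755).

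Serping1 encodes C1 inhibitor, which blocks C1r and C1s. Its normalized count was 868, 507, 559 and 667 in PBS tumors, 543, 511, 1290.3 and 2469 in SE tumors and 1982, 2766, 1958 and 1505 in GLA-SE tumors, without overlap of PBS and GLA-SE. Serping1 rose by 1.66 ± 0.23 (adjusted p = 4.71e-04), close to the 1.51 ± 0.17 of its target C1s1. Cd55 encodes decay-accelerating factor, which breaks up C3 convertases on host cells. Cd55 was 179, 187, 121 and 179.5 with PBS, 68.9, 65.6, 288 and 1785 with SE and 428, 426, 267 and 250.1 with GLA-SE. The lowest values of the 12 were SE replicates 1 and 2, and the highest was SE replicate 4. Cd55 rose by 1.04 ± 0.24 with GLA-SE (adjusted p = 0.00592). Clu encodes clusterin, a chaperone that also holds back the membrane attack complex, and gave 1818, 878, 1881 and 1439.9 with PBS, 873, 2632, 2076 and 17548 with SE and 4871, 4341, 4986 and 3254 with GLA-SE. Clu rose by 1.54 ± 0.25 with GLA-SE (adjusted p = 0.00105), again without overlap.

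The other regulators did not pass the test, and their groups overlapped. Cfi encodes factor I, the protease that inactivates C3b and C4b, and Cd46 encodes a cofactor for it. Cd59b encodes a blocker of the membrane attack complex. Their log2 fold changes were 0.70 ± 0.30 for Cfi, 0.44 ± 0.27 for Cd46 and 0.41 ± 0.24 for Cd59b, with adjusted p of 0.0682, 0.17 and 0.164. C1qbp, a mainly mitochondrial protein that can bind C1q, was the member with the smallest log2 fold change in size. It was 10273, 10139, 10313 and 10099 in PBS tumors and 9103, 8977, 10827 and 10293 in GLA-SE tumors (-0.06 ± 0.09, adjusted p = 0.56).

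**Figure D2:**
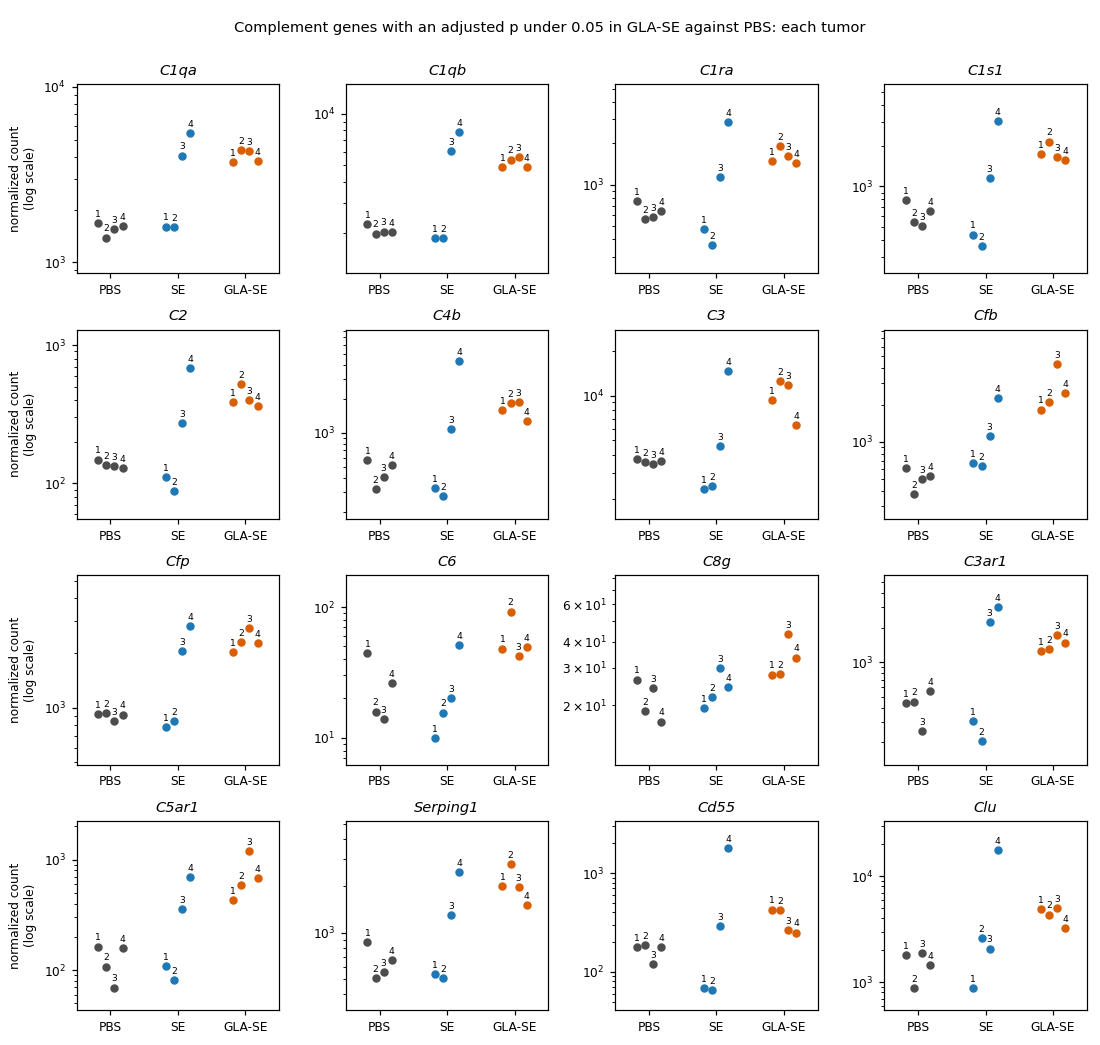
Normalized counts (log scale) of the 16 complement genes that passed the test in GLA-SE against PBS with a group mean of at least 20, in each of the 12 tumors, numbered by replicate within PBS, SE and GLA-SE. GLA-SE tumors lie above PBS tumors in every panel except C6, where PBS replicate 1 at 44.3 overlaps. SE replicates 1 and 2 mostly lie near or below the PBS tumors and SE replicates 3 and 4 mostly above them. Both SE replicates 1 and 2 lie above every PBS tumor in Cfb, and SE replicate 2 does in Clu.

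Other genes linked to complement were on the panel but not on the list. The integrin subunits of the receptors for inactivated C3b rose, Itgam by 1.56, Itgax by 0.91 and Itgb2 by 1.16, with adjusted p of 2.59e-04, 0.00699 and 2.19e-04. Itgam and Itgb2 were also called higher under TMM scaling, and none of the 3 was relative to the panel median. F12 and A2m, which encode a contact-system protease and a protease inhibitor, had log2 fold changes of 0.05 ± 0.33 and 0.16 ± 0.34 and did not pass, although F12 was called lower relative to the panel median.

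These directions are relative to the reference genes, and the choice of scale moves every gene alike. Under TMM scaling the panel median moved from 0.89 to -0.01, and 13 of the 31 complement genes were higher and 2 lower with GLA-SE, against 19.7% and 22.4% of the panel. The 13 were C1qa, C1qb, C1ra, C1s1, C2, C4b, C3, Cfb, Cfp, C3ar1, C5ar1, Serping1 and Clu, all of which had also passed with the reference genes, and the genes that were lower were Cr2 and C1qbp. Scaled to the panel median of each tumor, which moved the panel median to -0.40, only C4b, C5ar1 and Cfb were higher and 10 were lower (Masp1, Masp2, Crp, C8b, C8g, C9, Cr2, Cd46, Cd59b and C1qbp), against 8.13% and 40.9% of the panel. C5ar1 and Cfb had the largest fold changes under all 3 scales, and Cr2 and C1qbp the smallest.

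**Figure D3:**
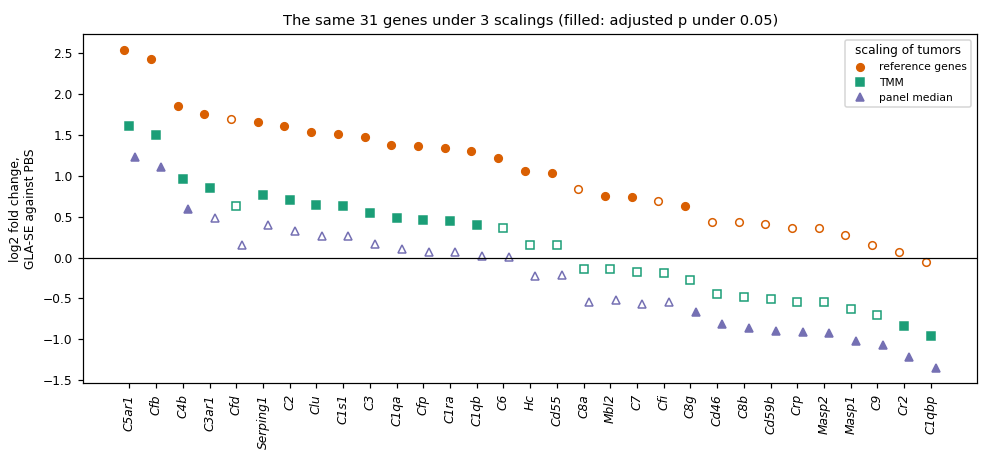
The log2 fold change of each of the 31 complement genes in GLA-SE against PBS under 3 scalings of the tumors (reference genes, TMM and panel median), with filled symbols for an adjusted p under 0.05. The order of the genes is nearly the same under the 3 scalings while the level shifts, so that 19 genes are called higher with the reference genes, 13 with TMM and 3 with the panel median.

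Ratios of one gene to another within a tumor do not depend on any scale, and 8 of them were compared between the 3 groups. Two-sided exact permutation tests over the 70 assignments of 4 tumors against 4 were used, which cannot give a p below 0.0286, and the p-values were adjusted over 24 tests. The ratio of Cfb to C3 was 0.163, 0.105, 0.144 and 0.147 in the PBS tumors, 0.283, 0.258, 0.244 and 0.155 in the SE tumors and 0.196, 0.169, 0.369 and 0.398 in the GLA-SE tumors. Every GLA-SE tumor was above every PBS tumor, with geometric means of 0.264 and 0.138 (exact p = 0.0286, adjusted p = 0.229). The ratio of C1qa to Csf1r, the receptor that marks monocytes and macrophages, was 3.80 to 4.17 in PBS tumors and 3.23 to 3.72 in GLA-SE tumors, and these ranges did not overlap (exact p = 0.0286, adjusted p = 0.229). C5ar1 to C3ar1 had geometric means of 0.290 with PBS and 0.474 with GLA-SE, with overlap (exact p = 0.0571). C1qb to C1qa stayed between 1.17 and 1.49 in all 12 tumors, and C1s1 to C1ra between 0.874 and 1.17. None of the 24 passed after adjustment, and the ratios were chosen with the values of the genes known. A single ratio at the lowest possible p could not pass after adjustment over 24 tests, so this outcome decides nothing about it.

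**Figure D4:**
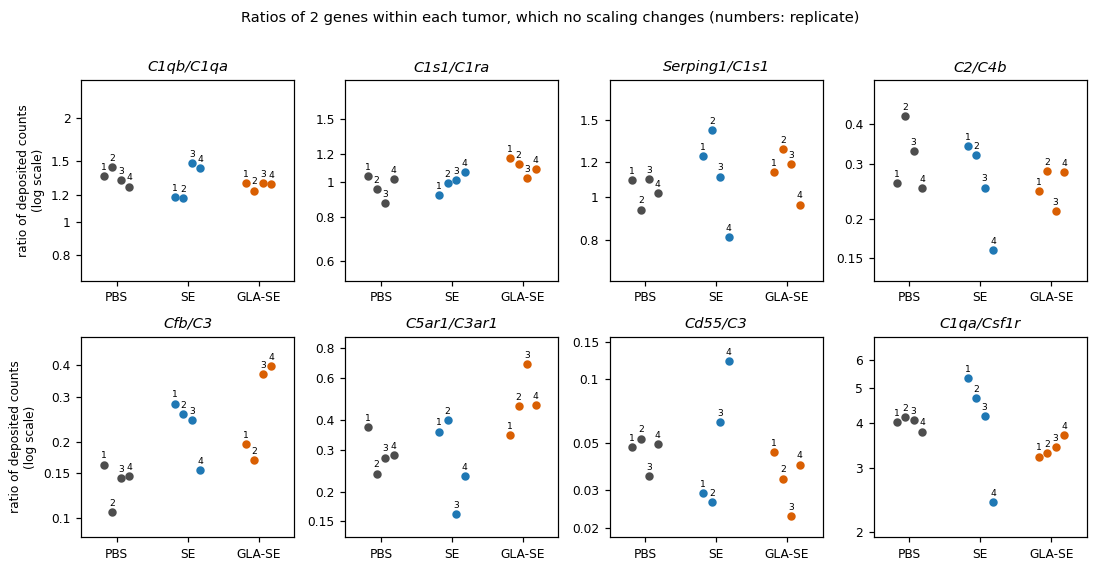
The ratio of deposited counts of one gene to another (log scale) within each of the 12 tumors, numbered by replicate, for 8 pairs of genes. PBS and GLA-SE do not overlap in Cfb/C3 (0.105 to 0.163 against 0.169 to 0.398) and in C1qa/Csf1r (3.80 to 4.17 against 3.23 to 3.72), and SE replicate 4 lies at one end of the SE tumors in several panels.

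In SE tumors compared with PBS tumors, 0 of the 31 complement genes passed the edgeR test, and 0% of the panel passed in either direction. At an unadjusted p under 0.05 there were 5 of the 31 genes and 140 of the panel. DESeq2 gave no adjusted p to some of the genes. With the same reference scaling it called 2 complement genes higher with SE (C8a and Cfb) and did not call 17. The panel share was 8.78% of the 615 genes with an adjusted p there. With its own size factors it called 1 higher with SE (Cfb) and did not call 23, against 1.08% of 649. The other complement genes had no adjusted p in these fits. The PBS tumors are the same as in the comparison above, so both comparisons share them. The median log2 fold change was 0.89 over the 31 genes and 0.53 over the panel, and without SE replicate 4 it was 0.22 and 0.21. Cfb alone lay higher in all SE than in all PBS tumors, 1 of 31 against 8.67% of the panel, and 0 of the 31 lay lower, against 1.07% of the panel. The log2 fold change of Cfb was 1.22 ± 0.42 (adjusted p = 0.243, exact permutation p = 0.0286), between 0.69 and 1.42 when each tumor was left out in turn. Groups without overlap always give that exact p, so it adds nothing to the non-overlap by which Cfb was singled out. With the deposited counts the groups overlapped, as Cfb was 614 in SE replicate 2 and 645, 685 and 666 in PBS replicates 1, 3 and 4.

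The SE tumors differed from one another more than the tumors of the other groups. Over the 26 members with a mean of at least 20 over the 12 tumors, the median coefficient of variation was 76.3% among SE tumors, 20.6% among PBS tumors and 23.2% among GLA-SE tumors. Of the 16 genes shown by tumor, SE replicate 1 was below every PBS tumor in 9 and above in 1, and SE replicate 2 was below in 9 and above in 2. SE replicates 3 and 4 were each above every PBS tumor in 15 of the 16, and SE replicate 4 was also above every GLA-SE tumor in 11. That last count rests on its scaling. With the deposited counts, SE replicate 4 was above every GLA-SE tumor in 3 (C4b, Cd55 and Clu) and SE replicate 3 in 1 (C3ar1), and they were above every PBS tumor in 14 and 12, while SE replicates 1 and 2 were below every PBS tumor in 3 and 12 and above in 4 and 0. C1qbp went the other way in SE replicates 1, 3 and 4, with normalized counts of 10778, 8828, 8893 and 5726 in the 4 SE tumors. It was above every PBS tumor in replicate 1 and below every PBS tumor in replicates 2, 3 and 4. C8a was a further exception, as its counts in SE replicates 1, 2 and 3 (122, 151, 116) were above every PBS tumor and that in replicate 4 (59.0) was not.

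Cfd spanned the widest range of the 31 genes. Its normalized count was 78.9 and 78.1 in SE replicates 1 and 2, below every PBS tumor, 1935 in replicate 3 and 71793 in replicate 4. Adipsin is a product of fat cells. In SE replicate 4 Cfd alone held 35267 of 816604 counts, 4.32% of the total (95% Wilson interval 4.28% to 4.36%, counting error only). In the PBS tumors Cfd held 0.0236% to 0.102%. Pparg and Cd36, which encode a fat-cell transcription factor and a fatty acid transporter and were picked after their values were seen, were 563.9 and 8397 in SE replicate 4, 111 and 1989.8 in replicate 3, and at most 29.2 and 453.5 in PBS tumors. Pparg was 34.7, 38.4, 48.9 and 27.5 and Cd36 859, 942, 1096 and 429 in the GLA-SE tumors, of which replicate 3, with Cfd at 3889, was the highest in both. Cd36 was also above every PBS tumor in SE replicate 2, at 758, where Cfd was below them. The summed macrophage markers and the summed endothelium and fibroblast markers, given below, were also above every PBS tumor in SE replicates 3 and 4. Whether fat tissue was in these pieces, and which cells held Pparg and Cd36, was not tested. Hc and Clu were likewise highest in SE replicate 4, Hc at 212 against at most 17.5 in the other 3 SE tumors and Clu at 17548 against at most 2632.

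In GLA-SE tumors compared with SE tumors, 0 of the 31 complement genes passed the test, while 2.13% of the panel was higher and 0% lower. At an unadjusted p under 0.05 there were 2 of the 31 genes and 133 of the panel. DESeq2 called Cfb higher under both of its scalings. On the reference scale 1 complement gene was called and 20 were not, against 16.1% of the panel genes with an adjusted p called higher. With its own size factors 2 were called, Cfb higher and Masp1 lower, and 24 were not. The panel shares there were 8.02% higher and 3.86% lower. The other complement genes had no adjusted p in these fits. The 2 groups overlapped in all 31 genes, whereas 14.4% of the panel lay higher and 0.267% lower without overlap. The estimate was above 0 in 19 of the 31 genes and below 0 in 12. Those with the largest size above 0 were 1.31 ± 0.55 for C6, 1.22 ± 0.69 for C5ar1 and 1.20 ± 0.47 for Cfb (adjusted p of 0.252, 0.408 and 0.239), and those below 0 were -3.72 ± 2.07 for Cfd, -1.80 ± 1.10 for Hc and -1.06 ± 0.63 for Masp1 (adjusted p of 0.403, 0.46 and 0.439). The classical genes had log2 fold changes of 0.14 to 0.54, each smaller than its standard error.

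This comparison turned on SE replicate 4. Without it, C3, Cfb and C6 passed with higher counts in GLA-SE, 3 of 31 against 13.5% of the panel, and the median log2 fold change of the 31 genes went from 0.20 to 0.67. The estimate for Cfb was then 1.74 and that for C3 1.67. The difference between the GLA-SE and SE effects is this comparison itself, and passing against PBS in one group but not in the other is not a test of it.

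Most markers of the cell types a tumor piece can hold rose with the complement genes on the reference scale, where 68.3% of the panel rose. Those of B cells did not. The monocyte and macrophage list rose in 10 of 10 genes with GLA-SE, and its summed count was 29016 to 37049 in PBS tumors, 83149 to 122698 in GLA-SE tumors and 24313 to 108311 in SE tumors, low in SE replicates 1 and 2 and high in 3 and 4. Such sums weight a list towards its genes of highest count. Lyz2 alone was 26330 to 33447 in PBS tumors and 73399 to 104029 in GLA-SE tumors. Csf1r, its defining receptor, rose by 1.62 on the log2 scale and C1qa by 1.38. The endothelium and fibroblast list rose in 9 of 9 genes, with sums of 4044 to 9178 in PBS tumors and 18017 to 26414 in GLA-SE tumors. Its sum reached 121309 in SE replicate 4, where Col3a1 alone was 91073. C1ra, C1s1, C4b and Clu were also highest in that tumor, as were C1qa, C1qb, C3, Cfp and C3ar1. With the deposited counts only C4b and Clu of these were highest there. The neutrophil list rose in 4 of 8 genes (284 to 333 with PBS, 1243 to 11274 with GLA-SE), its highest sum being in GLA-SE replicate 3, which also had the highest C5ar1 and Cfb. S100a8 alone was 7682 in that tumor, and Mpo, Elane, Ltf and Camp did not pass the test with GLA-SE. The T cell list rose in 5 of 6 genes (974 to 2543 with PBS, 2665 to 3562 with GLA-SE). The B cell list, to which the A20 cells belong by origin, rose in 0 and fell in 2 of 8 genes (Cd79b and Ms4a1), with sums of 19752 to 22996 with PBS and 15712 to 18692 with GLA-SE. Under TMM scaling the genes called higher were 8 of 10 for macrophages, 4 of 8 for neutrophils, 2 of 9 for endothelium and fibroblasts (Col1a1 and Col3a1) and 0 of 6 for T cells, and 7 of 8 B cell genes and 1 neutrophil gene (Mpo) were lower. Relative to the panel median they were 3, 3, 0 and 0, with all 8 B cell genes, 4 neutrophil genes and 1 stromal gene (Kdr) lower. The panel shares higher and lower were 19.7% and 22.4% with TMM, and 8.13% and 40.9% with the panel median. No marker was at a count of 0 in any tumor. The part of these cell types in the complement counts was not tested.

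**Figure D5:**
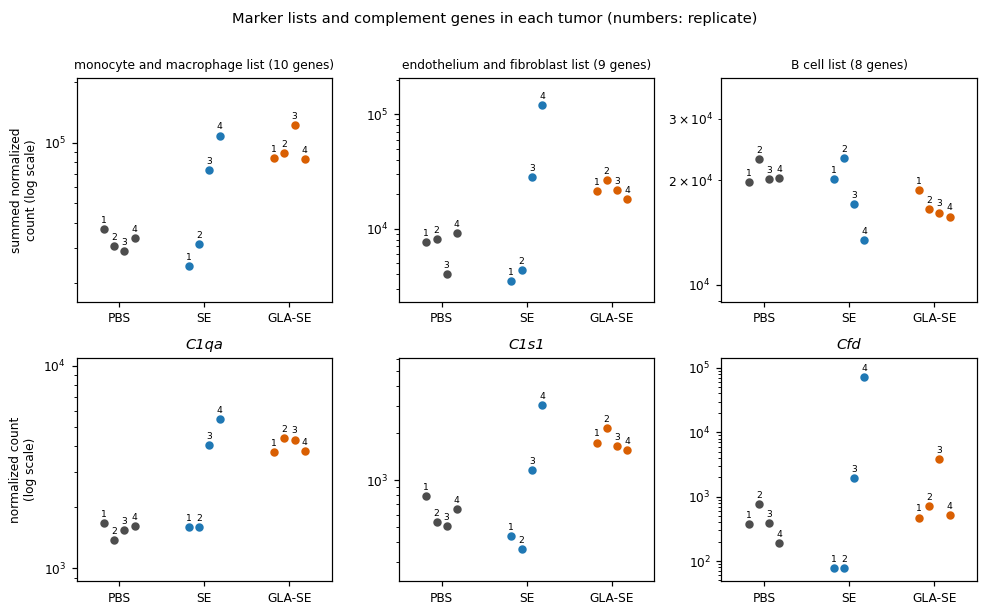
Summed normalized counts (log scale) of the monocyte and macrophage, endothelium and fibroblast, and B cell marker lists (top) and normalized counts of C1qa, C1s1 and Cfd (bottom) in each of the 12 tumors, numbered by replicate. The sums weight each list towards its genes of highest count, such as Lyz2 and Col3a1. SE replicates 3 and 4 lie above all PBS tumors in the macrophage and stromal lists and in C1qa, SE replicate 4 is highest for the stromal list (121309), C1s1 (3043) and Cfd (71793), and the B cell list is lower in GLA-SE than in PBS tumors on this scale and on the other 2.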

How the data were processed

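RNA from 12 A20 tumors was measured by the authors on the nCounter mouse PanCancer Immune Profiling Panel, and the labels gave the groups. The deposited file is a table of counts of barcoded probes for 770 genes. The study's methods describe normalization in nSolver. The values deposited are whole counts with unequal totals and unequal reference genes, and were handled here as raw. The assay involves no alignment, and coordinates apply only to the promoters. The table used here holds no negative control probes, so background was not subtracted.

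Scaling used the geometric mean, per tumor, of 17 of the 20 reference genes, selected over the 12 tumors by geNorm. The selection dropped Alas1, G6pdx and Gusb. The test was run in edgeR 4.0.16 under R 4.3.3 (quasi-likelihood test, 750 genes, no filter on low counts, no covariates, Benjamini-Hochberg adjustment, threshold 0.05), each fit holding only the 8 tumors compared. Standard errors are the size of the log2 fold change divided by the square root of the F statistic. Exact permutation tests used log2(normalized count + 1), and log2 ratios of deposited counts for pairs of genes. Precision is limited by 4 tumors per group and, for genes near 20 counts, a threshold named in the study's nSolver settings, by counting error.

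One gene linked to complement is not reported here. Every member is named, and members that passed with a mean of at least 20 are given in every tumor. The members, the lists of roles and markers and the tests were chosen with earlier results of these data known. Alternatives were geNorm within each comparison, all 20 reference genes, TMM and panel median scaling, DESeq2 1.42.0 with 2 scalings, a filter of 20 counts in at least 4 tumors, 1 fit of all 12 tumors, a replicate block and leaving out each tumor. Leaving the counts unscaled, the ratios and the choice of Pparg and Cd36 were added after seeing the data. Analyses used pandas 2.3.3 and scipy 1.17.1, and figures matplotlib 3.10.9, in Python 3.11.15.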

Additional observations from a re-analysis of the deposited data

Results flagged for a closer look

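A tumor far from the other 3 of its group was searched for in 132 sets of values, each 1 complement gene or 1 summed marker list in 1 group of 4 tumors. Such a tumor was found in 14 sets, where chance alone gives about 1 in 20, or 6.6. In 7 of the 14 it was SE replicate 4, always as the highest. In that tumor Cfd was 71790 normalized counts, Hc 211.7, C8b 87.53, Cd55 1785 and Clu 17550, the neutrophil list summed to 4702 and the T cell list to 5521. GLA-SE replicate 3 was the highest and distant for Cfd (3889), for the summed monocyte and macrophage list (122700) and for the neutrophil list (11270). The remaining distant tumors were GLA-SE replicate 2 for C6 (92.41), PBS replicate 1 for C9 (18.84), PBS replicate 2 for the B cell list (23000), and PBS replicate 3 for Cd55, where it was the lowest at 121.2.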

How the results depend on the processing

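In GLA-SE against PBS the number of complement genes that passed went from 19 to 8 with all 12 tumors in one fit, and stayed between 13 and 19 under the other settings. The direction depended on the scale. Higher and lower were 3 and 10 with the panel median, 13 and 2 with TMM and with DESeq2's own size factors, and 15 and 1 without rescaling, and the cause was not tested beyond the shift of the panel median. With the panel median the log2 fold changes were -1.02 for Masp1, -0.92 for Masp2, -0.52 for Mbl2, -0.92 for Crp, -0.23 for Hc, -0.57 for C7, -0.86 for C8b, -0.66 for C8g, -1.07 for C9, -1.22 for Cr2, -0.81 for Cd46, -0.21 for Cd55 and -0.90 for Cd59b. With TMM they were -0.14 for Mbl2, -0.18 for C7, -0.28 for C8g and -0.84 for Cr2, and with DESeq2's own size factors -0.22 for C8g and -0.77 for Cr2. Over the panel, higher and lower were 512 and 3 as reported, 148 and 168 with TMM, 61 and 307 with the panel median, 193 and 153 with DESeq2's own size factors, 351 and 17 without rescaling, and 253 and 0 with all 12 tumors.

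In SE against PBS, where 0 passed, DESeq2 called 1 with its own size factors and 2 with the reference genes, all higher, while the panel had 7 higher and 5 lower and 54 and 6. In GLA-SE against SE, where 0 passed, DESeq2 called 2 with its own size factors (1 higher and 1 lower) and 1 with the reference genes (higher), where the panel had 54 higher and 26 lower and 102 and 7, and 4 passed without rescaling, all higher, where the panel had 88 and 1. Leaving out each tumor in turn gave 16 to 19 called, all higher and 0 lower, in GLA-SE against PBS, 0 in SE against PBS, and 0 to 3 in GLA-SE against SE, where the 3 came without SE replicate 4. Over the panel, GLA-SE against SE gave 16 higher as reported, 69 with all 12 tumors in one fit, 101 without SE replicate 4, and 4 to 17 without any one of the other 7 tumors, the 4 coming when GLA-SE replicate 2, GLA-SE replicate 4 or SE replicate 3 was left out, against 5 and 7 for SE replicates 1 and 2.

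Replicate numbers are shared by the groups, but deviations of same-numbered tumors correlated between -0.253 and 0.195, so the numbers were not taken as pairs. With the replicate number as a block, 16 complement genes passed in GLA-SE against PBS (without Hc, C7 and C8g), where the panel had 438 higher and 2 lower, and 0 in the other comparisons, and the panel count of GLA-SE against SE went from 16 to 0. Values under 20 counts limit Mbl2, C7, C9 and Hc most, and the filter of 20 counts left 26 of the 31 genes, of which 16 passed, and 670 of the panel, of which 496 were higher and 4 lower.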
